A study of Mus musculus with 44 samples.

Results

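The genes described here are 9 receptors for hormones that act on the mammary gland, read in sorted fibroblasts. They are Esr1, Pgr, Nr3c1, Nr3c2, Prlr, Ghr, Oxtr, Thrb and Agtr1a, taken by gene symbol out of 55486 genes in the deposited table. All 9 had enough counts to be tested. Fibroblasts were sorted as EpCAM-/CD49f-/CD31-/CD45- cells from En1-Cre;mTmG host mice that carried transplanted mammary tissue in the fat pad. Control hosts had received Cdh1F/F;PtenF/F tissue without WapCre and kept a normal gland, from which the normal fibroblasts (NFs) were taken. Cancer-associated fibroblasts (CAFs) came from hosts with tumors of the WB1P model (WapCre;Brca1F/F;Trp53F/F) or of the WB1P-Myc model, which carries in addition the Col1a1invCAG-Myc-IRES-Luc allele. Wap is a milk protein gene whose promoter drives Cre in mammary epithelium, so the tumor alleles sit in the transplanted epithelium, whereas all hosts, control hosts included, share the En1-Cre and mTmG alleles. In these hosts GFP marks the lineage of En1, and CD26, the product of Dpp4, divides the cells into CD26- fibroblasts (GFP-positive En1+ and GFP-negative double- cells) and CD26+ fibroblasts (double+ with GFP and CD26+ without it).

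The 44 libraries came from 13 mice, with 12 libraries of 3 control mice (mice 1 to 3), 16 of 5 WB1P mice (mice 4 to 8) and 16 of 5 WB1P-Myc mice (mice 9 to 13, of which 12 and 13 are labelled 8x8). By the study's methods this mark is a tumor size that counts as advanced, a step before end-stage. Counts of the GFP-positive and GFP-negative libraries of a mouse were added within each CD26 class, which gave 25 sums. Some sums held 1 library. These were the CD26- sums of mouse 4 (En1+) and of mice 9 and 11 (double-). They were also the CD26+ sums of mice 6, 10 and 11 (double+). Mouse 4 had no CD26+ library, so the CAFs comprised 10 CD26- and 9 CD26+ sums. Libraries held 5790599 to 15240328 counts, and the smallest was the single CD26+ library of mouse 6. Values are CPM (read counts scaled to a common library size), and differences are log2 fold changes with standard error (SE) from edgeR's quasi-likelihood test. A gene passed when its p-value, adjusted by Benjamini-Hochberg over all 16601 genes tested (FDR), was under 0.05. Such p-values measure the spread between the sums of a group. The main fit did not use that the 2 CD26 classes come from the same mouse, so its comparisons of these classes leave out the pairing. Mouse as a block was run as an alternative. The sort showed in Dpp4, which had 1.74 to 6.90 CPM in the CD26- NFs against 264.6 to 804.5 CPM in the CD26+ NFs, and 0.620 to 15.3 CPM against 233.5 to 612.4 CPM in the CAFs.

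Steroid and thyroid hormone receptors are transcription factors whose activity is controlled by their hormone. Esr1 encodes estrogen receptor alpha, Pgr the progesterone receptor, Nr3c1 the glucocorticoid receptor, Nr3c2 the mineralocorticoid receptor and Thrb a thyroid hormone receptor. Prlr and Ghr encode the prolactin and growth hormone receptors, single-pass cytokine receptors that signal through JAK2 and STAT5. Oxtr, the oxytocin receptor, and Agtr1a, the main angiotensin II receptor of the mouse, are G protein-coupled receptors, and oxytocin is best known in this tissue for making myoepithelial cells contract during milk let-down. In the mammary gland, estrogen and growth hormone act in large part through the stroma during ductal growth, and progesterone and prolactin drive side branching and milk production mainly through the epithelium.

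The genes lie, in GRCm38, at chr10:4611593-5005614 (Esr1, ENSMUSG00000019768, plus strand), chr9:8899833-8968611 (Pgr, ENSMUSG00000031870, plus), chr8:76899442-77245012 (Nr3c2, ENSMUSG00000031618, plus), chr15:10177238-10349180 (Prlr, ENSMUSG00000005268, plus), chr15:3317760-3583492 (Ghr, ENSMUSG00000055737, minus), chr6:112473683-112489943 (Oxtr, ENSMUSG00000049112, minus), chr14:17660261-18038090 (Thrb, ENSMUSG00000021779, plus) and chr13:30336441-30382867 (Agtr1a, ENSMUSG00000049115, plus). RefSeq start windows of GRCm38.p6 were matched for 7 of the 9 receptors, with 12 windows in all. Sequence before the RefSeq start is shown for Pgr and Oxtr, which differed most of the 9 between the CD26 classes of CAFs, and for Nr3c2 and Thrb, whose levels were lower in CAFs than in NFs. Each run is given 5′ to 3′ on the gene's strand and stops where an annotated exon begins. The Nr3c2 and Thrb runs lie within the annotated gene, outside its exons, since the RefSeq start is downstream of the outermost annotated one. The run of Pgr is chr9:8899583-8899832, that of Oxtr chr6:112489944-112490075 on the minus strand, that of Nr3c2 chr8:76902080-76902287 and that of Thrb chr14:17660710-17660891. Capitals mark a TATA-type match (TATAAA or TTTATA) in Pgr and matches of the estrogen receptor core site (GGTCA or TGACC) in Nr3c2 and Thrb.
Pgr: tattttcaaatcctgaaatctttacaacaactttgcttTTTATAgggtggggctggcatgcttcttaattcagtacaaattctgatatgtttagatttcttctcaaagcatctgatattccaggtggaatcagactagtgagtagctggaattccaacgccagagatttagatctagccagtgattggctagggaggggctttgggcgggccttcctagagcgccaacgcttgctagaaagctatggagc
Oxtr: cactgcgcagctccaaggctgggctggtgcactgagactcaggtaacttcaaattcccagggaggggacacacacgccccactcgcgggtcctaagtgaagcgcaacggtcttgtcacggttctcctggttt
Nr3c2: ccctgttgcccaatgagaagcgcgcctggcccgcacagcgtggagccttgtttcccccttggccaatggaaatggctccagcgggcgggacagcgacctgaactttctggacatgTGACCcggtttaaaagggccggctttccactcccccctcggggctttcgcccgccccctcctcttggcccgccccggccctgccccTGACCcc
Thrb: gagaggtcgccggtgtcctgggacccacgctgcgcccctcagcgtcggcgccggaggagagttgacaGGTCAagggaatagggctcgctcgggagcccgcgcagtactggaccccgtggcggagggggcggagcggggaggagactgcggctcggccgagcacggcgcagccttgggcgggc
In the 250 bases before the start, searched on both strands, the core site GGTCA was found 2 times for Nr3c2, 1 time for Oxtr (in bases that an annotated exon covers, not shown) and 1 time in this Thrb window, and 35.2% of 32851 windows held it. The full palindrome GGTCANNNTGACC, which contains the core site at each end, was in 0.0639% of windows and in none of the 12. The glucocorticoid-type palindrome GNACANNNTGTNC, the kind of site that the products of Nr3c1, Nr3c2 and Pgr bind, was in 0.387% of windows and likewise in none of the 12. The TATA-type match was in 12.4% of all windows. A match is a description of letters, and no match says only that these letters are not in this window.

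Levels per kilobase of exon, averaged over the 25 sums, spread widely among the receptors. Agtr1a had 16.0 and Nr3c1 15.2 CPM per kilobase, at the 84.4th and 83.7th percentiles of the 16591 tested genes with a length. Ghr followed with 8.65 and Esr1 with 3.32, and Thrb (1.74), Nr3c2 (1.24) and Pgr (1.00) lay lower. Oxtr with 0.390 and Prlr with 0.164 CPM per kilobase were at the 20.8th and 10.8th percentiles. The order varied by group. In CD26- CAFs of WB1P, for example, Ghr had 10.1 and Agtr1a 4.54 CPM per kilobase, and Pgr was the lowest of the 9 in CD26- NFs, with 0.113.

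**Figure D1:**
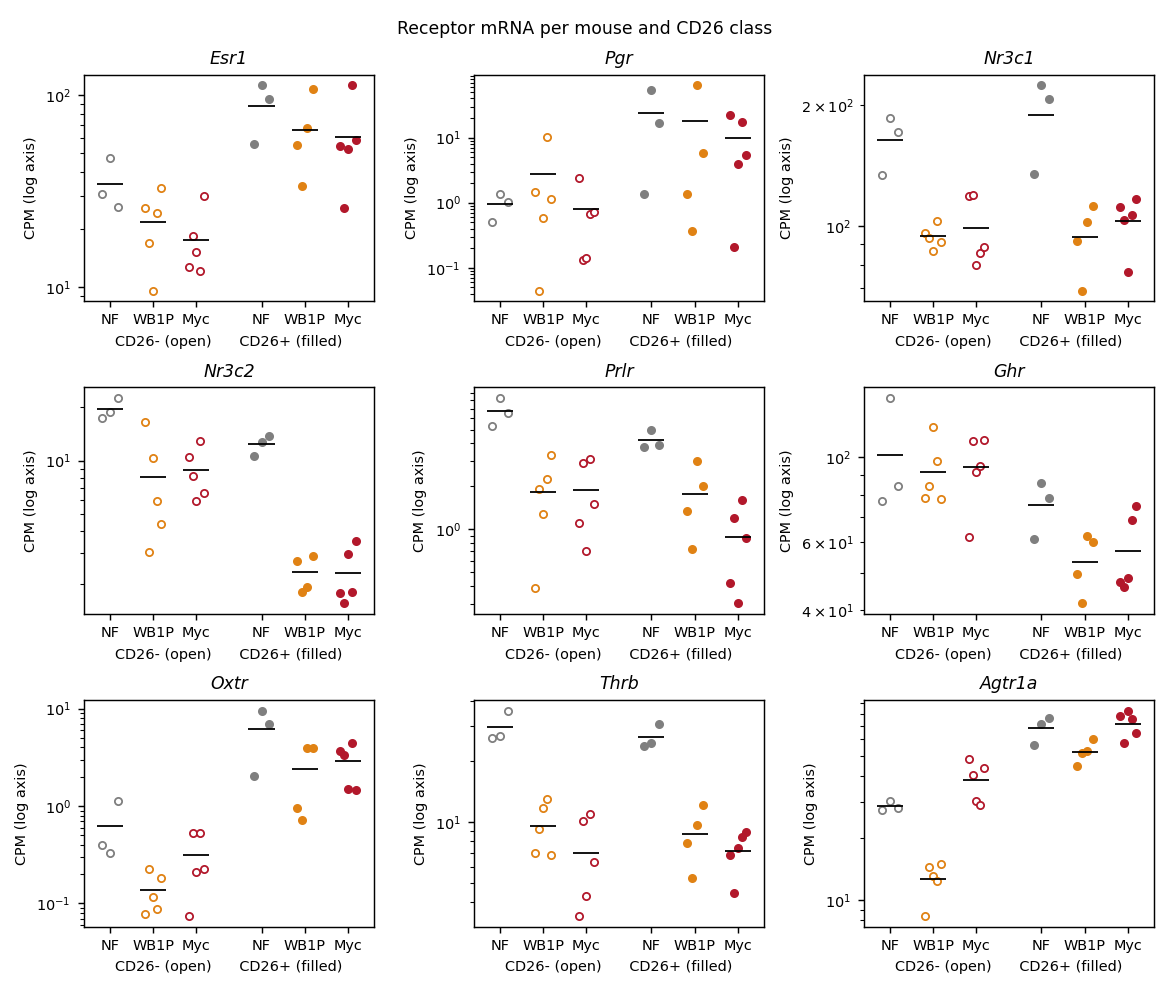
CPM (log axis) of each of the 9 receptors in the 6 groups of mice, with 1 point per mouse, open for CD26- and filled for CD26+ fibroblasts, and a black line at the arithmetic mean of the group. Thrb, Nr3c1, Nr3c2 and Prlr lie lower in every CAF group than in the NFs of the same CD26 class. The means of Esr1, Pgr, Oxtr and Agtr1a are higher in CD26+ than in CD26- cells of controls and of each model, with overlapping values for Pgr. Agtr1a also differs between the models in CD26- CAFs.

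The first comparison asked how the receptors differ between normal glands and tumors within a CD26 class. In CD26- fibroblasts 5 of 9 receptors were lower in CAFs and 0 were higher, where 21.0% of all genes were lower and 20.4% higher. In CD26+ fibroblasts 4 of 9 were lower and 0 higher, where 21.1% of all genes were lower and 20.1% higher. Nr3c1, Nr3c2, Prlr and Thrb fell in both classes, and Oxtr passed in CD26- fibroblasts. The median log2 fold change of the 9 receptors was -0.81 and -0.94, beside 0.01 and -0.00 over all genes. Under the study's stricter limit of an absolute log2 fold change over 2, 0 receptors remained in CD26- fibroblasts and 1, Nr3c2, in CD26+ fibroblasts. In bulk samples such as these, fewer cells of a type and less RNA per cell cannot be told apart.

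Thrb, the thyroid hormone receptor, had the lowest FDR of the 9 in CD26- fibroblasts. Its levels were 26.2, 26.6 and 35.7 CPM in the CD26- NFs and 3.40 to 13.1 CPM (median 8.13) in the 10 CD26- CAFs. In the CD26+ class it had 23.8, 24.7 and 30.7 CPM in NFs and 4.46 to 12.2 CPM (median 7.87) in the 9 CAFs. Every CAF sum was therefore below every NF sum of its class, and the log2 fold changes were -1.84 (SE 0.27, FDR = 1.42e-05) and -1.72 (SE 0.28, FDR = 6.99e-05), equal to levels 3.58-fold and 3.30-fold lower. The other thyroid receptor gene, Thra, fell by 0.88 and 0.59 on the log2 scale.

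Nr3c2, the mineralocorticoid receptor, was lower in CAFs of both classes. CD26- NFs had 17.3, 18.9 and 22.7 CPM, and CD26- CAFs 3.04 to 16.5 CPM (median 7.37). CD26+ NFs had 10.7, 12.8 and 13.8 CPM, and CD26+ CAFs 1.56 to 3.50 CPM (median 1.93). No CAF sum reached an NF sum in either class, although mouse 4, at 16.5 CPM, came within 1 CPM of the lowest CD26- NF. The log2 fold changes were -1.22 (SE 0.33, FDR = 0.00489) and -2.40 (SE 0.33, FDR = 1.56e-05). The difference between those changes was -1.18 (SE 0.50) with an unadjusted p = 0.0289 and an FDR of 0.291, so that it did not pass over all genes.

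Nr3c1, the glucocorticoid receptor (ENSMUSG00000024431, chr18:39410545-39519421 in GRCm38, minus strand), was well expressed everywhere and lower in CAFs. CD26- NFs had 134, 186 and 172 CPM against 80.1 to 119 CPM (median 92.5) in CAFs, and CD26+ NFs 135, 225 and 207 CPM against 69.0 to 117 CPM (median 103). The groups did not overlap in either class. The log2 fold changes of -0.77 (SE 0.16, FDR = 0.000576) and -0.94 (SE 0.16, FDR = 0.000121) correspond to levels 1.70-fold and 1.92-fold lower.

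Prlr, the prolactin receptor, was scarce throughout. It had 5.29, 8.36 and 6.53 CPM in CD26- NFs and 0.388 to 3.29 CPM (median 1.71) in CD26- CAFs. In CD26+ cells it had 3.76, 4.99 and 3.90 CPM in NFs and 0.302 to 3.03 CPM (median 1.20) in CAFs, from 4 to 83 reads per sum. Again no CAF sum reached the NFs, with log2 fold changes of -1.84 (SE 0.44, FDR = 0.00213) and -1.71 (SE 0.46, FDR = 0.00574). Foxa1 is a transcription factor of mammary luminal cells, which also express Prlr. It stood at 0.511 to 0.861 CPM in CD26- NFs and at 0.0 to 0.679 CPM in CD26- CAFs. The other 11 epithelial markers did not pass between these groups, with a median log2 fold change of 1.05 for the list of 12. The list summed to 30.3 to 76.8 CPM in CD26- NFs and to 21.7 to 220.4 CPM in CD26- CAFs. The part of epithelial RNA in the Prlr values was not tested.

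Ghr, the growth hormone receptor, did not pass in either class. It had 77.0, 143 and 84.3 CPM in CD26- NFs against 62.1 to 120 CPM (median 93.4) in CAFs, and 61.4, 85.7 and 78.3 CPM in CD26+ NFs against 41.6 to 74.7 CPM (median 49.7). The groups overlapped in both classes, with log2 fold changes of -0.13 (SE 0.20, FDR = 0.641) and -0.44 (SE 0.20, FDR = 0.0843). Without mouse 2 the CD26- difference was 0.22.

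Esr1 did not pass either, although its CAF values lay toward the low side. CD26- NFs had 30.5, 47.0 and 26.3 CPM, and CD26- CAFs 9.64 to 32.7 CPM (median 17.7). CD26+ NFs had 55.5, 112.8 and 95.5 CPM, and CD26+ CAFs 25.9 to 112.9 CPM (median 55.0). The ranges overlapped, with log2 fold changes of -0.81 (SE 0.37, FDR = 0.0793) and -0.47 (SE 0.38, FDR = 0.325). The CD26- difference passed without mouse 8 (-0.92, FDR = 0.0457) or mouse 13 (-0.95, FDR = 0.0447), and without both 8x8 mice (-0.90, FDR = 0.0467).

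Oxtr was close to the detection limit in CD26- cells, with 0.399, 0.329 and 1.13 CPM in NFs and 0.0740 to 0.528 CPM (median 0.197) in CAFs, which stood for 1 to 16 reads per sum. In CD26+ cells it had 2.02, 9.56 and 6.99 CPM in NFs and 0.724 to 4.46 CPM (median 3.32) in CAFs. The groups overlapped in both classes. The log2 fold change was -1.48 (SE 0.57, FDR = 0.0408) in CD26- and -1.21 (SE 0.49, FDR = 0.0541) in CD26+ fibroblasts. The CD26- call was lost under 9 of 19 alternatives, among them mouse as a random block (FDR = 0.253) and the removal of mouse 3 (log2 fold change -0.71, FDR = 0.464). The CD26+ difference passed when mouse 1 (-1.62, FDR = 0.0204), 7, 8, 9 or 12 was left out.

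**Figure D2:**
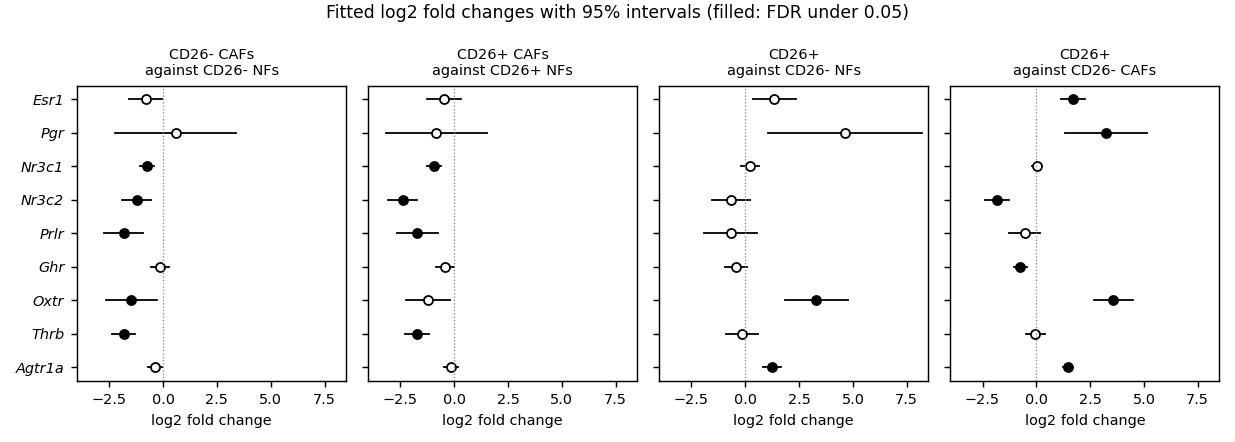
Log2 fold change of each receptor with its 95% interval in the comparisons of CAFs with NFs and of CD26+ with CD26- fibroblasts, filled where FDR was under 0.05. The CAF intervals of Nr3c1, Nr3c2, Prlr, Thrb and Oxtr lie below 0 in both CD26 classes, that of Oxtr without passing in CD26+ cells. The intervals of Oxtr, Agtr1a, Esr1 and Pgr lie above 0 in both CD26 comparisons, those of Esr1 and Pgr without passing in NFs.

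A further comparison set the CD26+ class against the CD26- class. In NFs 2 of 9 receptors were higher in CD26+ cells and 0 lower, where 2.67% of all genes were higher and 1.49% lower. In CAFs 4 of 9 were higher and 2 lower, where 19.1% of all genes were higher and 19.9% lower. Oxtr and Agtr1a were higher in CD26+ cells of NFs and of CAFs, Esr1 and Pgr were higher in CD26+ CAFs, and Nr3c2 and Ghr were lower there. The difference between the CD26 contrast of CAFs and that of NFs passed for 0 of 9 receptors, with 1 (Nr3c2) at an unadjusted p under 0.05, 0 of 9 by DESeq2's Wald test and 2.11% of all genes called by edgeR.

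Oxtr showed the largest difference between the classes among the receptors called in both NFs and CAFs. Within each of the 12 mice with both classes, the CD26+ value was above the CD26- value (3 of 3 control and 9 of 9 tumor mice), and in CAFs the lowest CD26+ value, 0.724 CPM in mouse 6, exceeded the highest CD26- value, 0.528 CPM. The log2 fold change was 3.31 (SE 0.71, FDR = 0.00715, 9.89-fold) in NFs and 3.58 (SE 0.43, FDR = 8.4e-07) in CAFs. The NF call rested on few mice, as the log2 fold change was 2.56 (FDR = 0.181) without mouse 2.

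Agtr1a was higher in the CD26+ cells of all 12 mice. CD26- NFs had 27.3, 30.4 and 27.9 CPM and CD26+ NFs 56.6, 71.0 and 76.6 CPM, and in 9 of 9 tumor mice the CD26+ value was the higher one, as it was in 3 of 3 control mice. The difference was 1.26 (SE 0.20, FDR = 0.000516, 2.39-fold) in NFs and 1.47 (SE 0.12, FDR = 2.1e-09, 2.77-fold) in CAFs.

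Esr1 was higher in the CD26+ cells of all 12 mice. In CAFs the log2 difference was 1.68 (SE 0.27, FDR = 3.58e-05, 3.21-fold), and 9 of 9 mice shared the direction. In NFs the groups did not overlap and the difference was 1.35 (SE 0.48), but it did not pass (FDR = 0.143). With mouse as a block it was 1.33 and passed (FDR = 0.0302).

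Nr3c2 and Ghr went the other way. In CAFs Nr3c2 was lower in the CD26+ cells of 9 of 9 mice (log2 difference -1.84, SE 0.27, FDR = 8.92e-06), and so was Ghr (-0.75, SE 0.14, FDR = 0.000271). In NFs the differences were -0.66 (SE 0.43, FDR = 0.588) for Nr3c2, whose groups did not overlap, and -0.43 (FDR = 0.502) for Ghr. Prlr was lower in the CD26+ cells of 3 of 3 control and 8 of 9 tumor mice, and in CAFs its difference of -0.54 (SE 0.35, FDR = 0.235) became -0.70 with an FDR of 0.00178 when mouse was a block. Nr3c1 and Thrb differed little between the classes, by 0.03 (FDR = 0.857) and -0.04 (FDR = 0.887) in CAFs and by 0.21 (FDR = 0.803) and -0.16 (FDR = 0.947) in NFs.

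Pgr, the progesterone receptor, had the largest standard error of the 9 receptors in each of these comparisons, and its level ran over a wide range between mice. In CD26+ NFs it had 1.35, 53.6 and 16.7 CPM in mice 1, 2 and 3, against 0.507, 1.35 and 1.03 CPM in their CD26- cells. In CD26+ CAFs it had 1.35, 0.362, 64.8 and 5.75 CPM in WB1P mice 5 to 8 and 22.4, 0.212, 3.93, 17.3 and 5.32 CPM in WB1P-Myc mice 9 to 13. In CD26- CAFs the WB1P mice 4 to 8 had 1.47, 0.0447, 0.583, 10.4 and 1.15 CPM and the WB1P-Myc mice 9 to 13 had 2.37, 0.132, 0.140, 0.679 and 0.731 CPM. High values thus occurred in CD26+ cells of single mice of each group, and mouse 7 was high in both classes. Pgr was higher in the CD26+ cells of 8 of 9 tumor mice (mouse 6 was the exception), by 3.22 on the log2 scale (SE 0.91, FDR = 0.0076, 9.33-fold). In the 3 control mice the difference was 4.63 (SE 1.72) and did not pass (FDR = 0.167), but with mouse as a block it was 3.99 with an FDR of 0.00187. Between CAFs and NFs Pgr differed by 0.58 (SE 1.36, FDR = 0.755) in CD26- and by -0.83 (SE 1.13, FDR = 0.583) in CD26+ cells, with standard errors so wide that a change of several fold was not detectable. The sign turned without mouse 7 in CD26- cells (-0.31) and without mouse 2 in CD26+ cells (0.57).

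Greb1, a gene that estrogen induces, moved with Pgr from mouse to mouse. Across the 25 sums its log2 CPM correlated with that of Pgr with r = 0.838, the 4th highest of all tested genes, as a description of libraries that share mice. Its CD26+ values were 2.54, 48.4 and 20.5 CPM in the control mice, 4.78, 1.27, 110.5 and 8.24 CPM in mice 5 to 8, and 30.2, 1.56, 15.2, 13.3 and 14.0 CPM in mice 9 to 13. In CD26+ cells mice 2 and 7 were therefore the highest for both genes, and mice 1, 5, 6 and 10 the lowest. The 2 genes did not match in CD26- cells of mouse 4, which had 26.4 CPM of Greb1 and 1.47 CPM of Pgr.

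**Figure D3:**
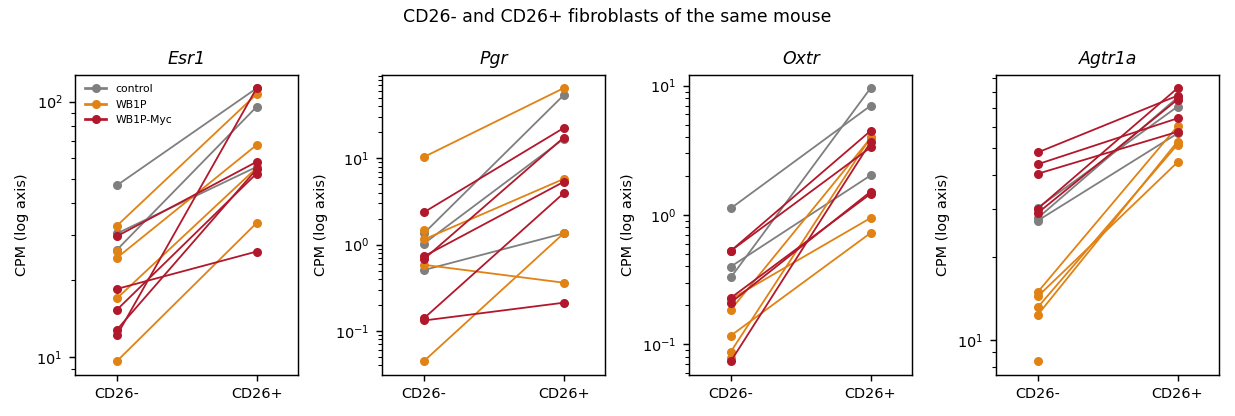
CPM (log axis) of Esr1, Pgr, Oxtr and Agtr1a in the CD26- and CD26+ sums of each mouse, with a line joining the classes of 1 mouse. All lines rise for Esr1, Oxtr and Agtr1a, and all but that of mouse 6 rise for Pgr, from levels that differ widely between mice.

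The tumor models were then compared with each other. In CD26- CAFs 1 of 9 receptors, Agtr1a, differed between WB1P-Myc and WB1P, where 0.512% of all genes were called. Agtr1a had the lowest p-value of all 16601 genes in this comparison. It had 8.37, 14.4, 13.2, 12.4 and 15.0 CPM in WB1P mice 4 to 8 and 48.3, 40.4, 30.2, 29.1 and 43.8 CPM in WB1P-Myc mice 9 to 13. Every WB1P-Myc value was above every WB1P value, and the log2 difference was 1.59 (SE 0.16, 95% interval 1.26 to 1.93, FDR = 2.12e-05, 3.02-fold). The sum of mouse 4 held En1+ cells only, and those of mice 9 and 11 double- cells only. In single libraries, En1+ cells had 7.51 to 12.7 CPM in WB1P and 27.6 to 55.5 CPM in WB1P-Myc. Double- cells had 15.5 to 19.0 CPM in WB1P and 30.6 to 48.8 CPM in WB1P-Myc. The NFs, at 27.3 to 30.4 CPM, lay above every WB1P value and overlapped the lowest WB1P-Myc values (mice 11 and 12). Against these NFs Agtr1a fell by 1.16 on the log2 scale in WB1P (SE 0.18, FDR = 3.45e-05, 5 of 5 mice below every control), and its difference in WB1P-Myc was 0.43 (SE 0.18, FDR = 0.0703), which passed without mouse 4, 11 (0.51, FDR = 0.0418) or 12.

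In CD26+ CAFs Agtr1a had 44.5, 51.6, 52.9 and 60.2 CPM in WB1P mice 5 to 8 and 77.8, 57.4, 82.8, 75.3 and 64.3 CPM in WB1P-Myc mice. The ranges overlapped, and the difference was 0.45 (SE 0.17) with an unadjusted p = 0.0128 and an FDR of 1.0. In that comparison edgeR called 0 of 9 receptors (1, Agtr1a, at an unadjusted p under 0.05) and 0 of all genes (0.0%), where 646 genes had an unadjusted p below 0.05, and DESeq2's Wald test called 8 genes, none of them a receptor of the 9. Whether the model difference of Agtr1a itself differed between the CD26 classes was not tested. Among the other 8 receptors the lowest FDR between models in CD26- CAFs was 0.411, for Oxtr (log2 difference 1.20, SE 0.66).

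Pericyte and vascular genes were set beside the Agtr1a values because mural cells are a known site of this receptor. The 9 pericyte markers summed to 228 to 414 CPM in CD26- NFs, 1974 to 5595 CPM in WB1P CD26- CAFs and 2525 to 9587 CPM in WB1P-Myc CD26- CAFs. In CD26+ cells they summed to 177 to 195 CPM in NFs and 208 to 454 CPM in CAFs. Between the models 0 of 9 pericyte markers passed in CD26- CAFs (median log2 difference 0.92). Of the 8 endothelial markers 1, Emcn, passed there in the direction of Agtr1a (log2 difference 1.93, 3.80-fold, FDR = 0.0358), with a median of 0.74 for the list. The part of mural or vascular cells in the Agtr1a values was not tested.

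**Figure D4:**
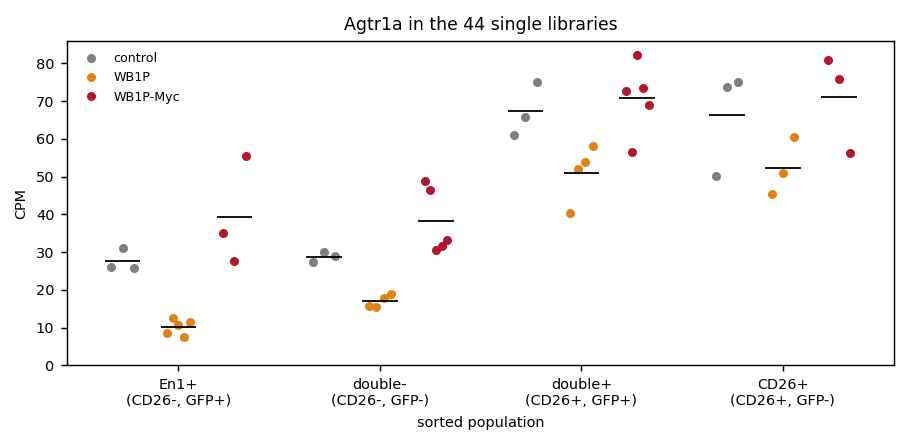
CPM of Agtr1a (linear axis from 0) in each of the 44 libraries, by model and sorted population. All WB1P En1+ libraries lie at 7.51 to 12.7 CPM and all WB1P double- libraries at 15.5 to 19.0 CPM, below the control libraries of the same populations, and the CD26+ and double+ libraries are higher in every model.

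Model by model, against the same control mice, the receptors that passed were largely the ones named above. The share of all genes called, given beside each count here, joins higher and lower genes. WB1P CD26- CAFs had 6 lower (Nr3c1, Nr3c2, Prlr, Oxtr, Thrb and Agtr1a) and 0 higher, where 35.4% of all genes were called. WB1P-Myc CD26- CAFs had 4 lower (Nr3c1, Nr3c2, Prlr and Thrb), where 36.6% were called. In CD26+ cells 3 were lower in WB1P (Nr3c1, Nr3c2 and Thrb), where 33.5% were called, and 4 in WB1P-Myc (those and Prlr), where 34.7% were called. Prlr in CD26+ cells was -1.18 (FDR = 0.107) in WB1P and -2.24 (FDR = 0.00357) in WB1P-Myc, and the difference between the models was -1.06 (SE 0.52, FDR = 1.0). Oxtr in CD26- cells was -2.08 (SE 0.69, FDR = 0.0226) in WB1P, with 5 of 5 mice below every control, and -0.88 (SE 0.64, FDR = 0.291) in WB1P-Myc.

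En1 lineage was compared within each CD26 class on single libraries and 15584 genes. Of the 9 receptors 0 passed between En1+ and double- cells, where 0.00642% of genes were called, and 0 between double+ and CD26+ cells, where 0.0128% were called. At an unadjusted p under 0.05 there was 1 receptor, Agtr1a, in the first comparison and 0 in the second. That Agtr1a difference was -0.25 (SE 0.11, unadjusted p = 0.0304, FDR = 1.0), and En1+ cells had the higher value in 2 of 10 pairs. Between the paired libraries of a mouse, the median fold was 1.06 for Nr3c1 and 1.08 for Ghr in CD26- cells. It was 2.83 for Oxtr in CD26- cells, where only few reads were counted, and 1.15 in CD26+ cells.

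The order of the group means repeated these patterns. Thrb had a mean of 29.5 ± 5.40 CPM (SD, n = 3 mice) for CD26- NFs, 26.4 ± 3.76 CPM for CD26+ NFs and 7.02 ± 3.41 CPM (n = 5) for WB1P-Myc CD26- CAFs, with a gap between NFs and CAFs and overlapping ranges among the 4 CAF groups. Esr1 was highest at 87.9 ± 29.4 CPM for CD26+ NFs and lowest at 17.7 ± 7.17 CPM for WB1P-Myc CD26- CAFs, with the ranges of all neighbours overlapping. Ghr was highest in CD26- NFs (101 ± 36.2 CPM) and lowest in WB1P CD26+ CAFs (53.4 ± 9.58 CPM).

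The counts of the following lists stand beside the shares of all genes given above, 20.4% higher and 21.0% lower in CD26- CAFs and 20.1% higher and 21.1% lower in CD26+ CAFs against NFs, and 19.1% higher and 19.9% lower in CD26+ than in CD26- CAFs. Other receptors of related hormones, from a list of 13 genes with 8 tested, included genes that passed in both directions. In CD26- cells 3 were higher in CAFs (Gper1 by 4.17, Avpr1a by 3.48 and Vdr by 1.88 on the log2 scale) and 2 lower (Thra -0.88 and Pgrmc1 -0.80). In CD26+ cells 2 were higher (Avpr1a 3.21 and Pgrmc2 0.42) and 2 lower (Thra -0.59 and Pgrmc1 -0.30). The medians of the list were 0.17 and 0.47. Thra thus fell beside Thrb, its relative, while Avpr1a, a vasopressin receptor and relative of Oxtr, rose. Between CD26 classes of CAFs, Agtr2 (4.29), the other main angiotensin receptor, and Thra (0.55) were higher in CD26+ cells, and Gper1 (-4.68), Avpr1a (-2.04) and Vdr (-1.69) were lower.

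Receptor coregulators and chaperones, 13 genes, included 6 that fell and 0 that rose in CD26- cells, beside 21.0% of all genes lower and 20.4% higher. In CD26+ cells 7 fell and 0 rose, beside 21.1% lower and 20.1% higher, and the medians were -0.38 and -0.62. Those that fell in both classes were Ncoa1 (-1.94 and -1.37), Crebbp (-0.92 and -1.01), Ep300 (-0.85 and -1.15), Ncoa2, Ncoa3 and Med1, all coactivators, and the corepressor Ncor1 fell in CD26+ cells. None of the 5 chaperone genes of the list (Fkbp4, Ptges3, Hsp90aa1, Hsp90ab1 and Stip1) passed between NFs and CAFs, and Stip1 had log2 fold changes of 0.55 and 0.48. The coregulators that fell in CD26- cells had 7895 to 15642 bases of exon (median 11150), and the other 7 genes of the list had 2108 to 12811 bases (median 2999). In CD26+ cells the medians were 12810 bases for those that fell and 2897 bases for the others. The part that length had in these changes was not tested.

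Exon length went with the change from NFs to CAFs over all genes, which is given here because most of the receptors that fell are long. In the top decile of exon length (at least 9501 bases), 35.4% of genes were lower in CD26- CAFs and 44.1% in CD26+ CAFs, and in the lowest decile (up to 1421 bases) 11.7% and 9.99% were. The median log2 fold change of the top decile was -0.28 and -0.43. Prlr, with 15339 bases, and Esr1, with 13661, are in that decile. Thrb (7403 bases), Nr3c1 (7684), Pgr (8546) and Ghr (9053) are in the decile below it, whose median was -0.16 and -0.25 and of whose genes 28.4% and 34.0% were lower. Nr3c2 (6474 bases) is in decile 8, counted from the shortest, where 25.1% and 26.8% of genes were lower. Oxtr (4790 bases) is in decile 6, where 20.7% and 18.7% were lower, and Agtr1a (2786 bases) in decile 4. The part that length had in the changes of Thrb, Nr3c1, Nr3c2, Prlr and Oxtr was not tested. The CD26 contrast showed little relation to length, with a Spearman correlation over genes of 0.08 in NFs and -0.06 in CAFs.

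Genes induced by glucocorticoids through the product of Nr3c1, a list of 13, passed in both directions. In CD26- CAFs 5 were lower (Cdkn1c -4.22, Zbtb16 -2.80, Per1 -1.07, Klf9 -1.04 and Mt1 -0.78) and 2 higher (Fkbp5 1.06 and Nfkbia 0.70), beside 21.0% and 20.4% of all genes. In CD26+ CAFs 4 were lower (Zbtb16 -2.28, Cdkn1c -1.95, Per1 -1.68 and Tsc22d3 -1.55) and 2 higher (Mt2 0.90 and Nfkbia 0.79). The medians were -0.47 and 0.04. Cdkn1c is an inhibitor of the cell cycle, and the 4 proliferation genes of the marker list rose in CAFs of both classes. Whether the change of Cdkn1c was tied to proliferation was not tested. Between the CD26 classes of CAFs 8 were higher in CD26+ cells and 3 lower (Per1 -1.10, Tsc22d3 -0.88 and Fkbp5 -0.38). Nr3c1 mRNA differed by 0.03 there, and the part of the receptor in the changes of this list was not tested.

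**Figure D5:**
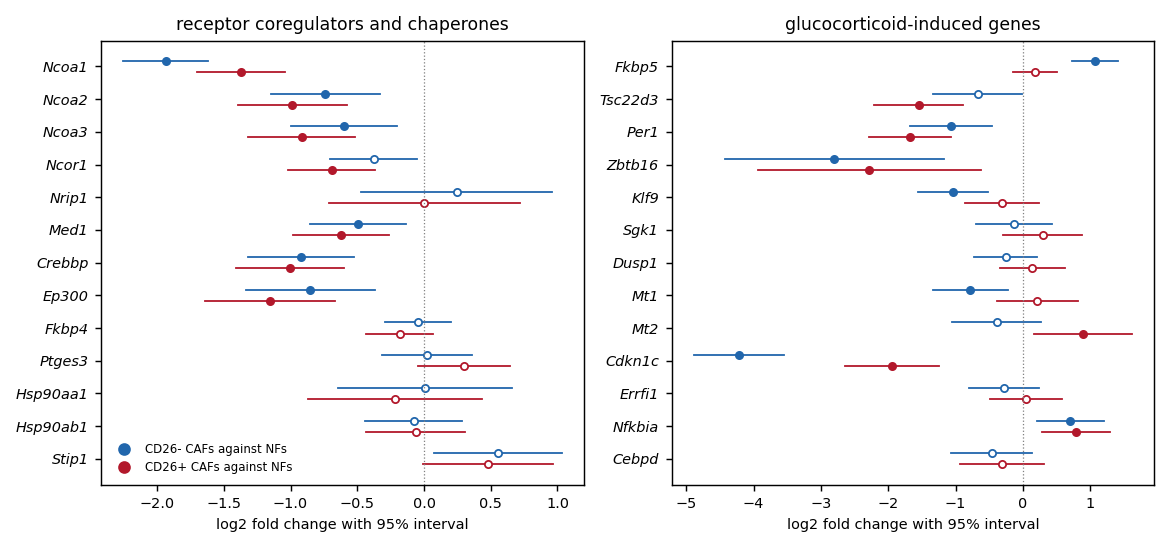
Log2 fold change from NFs to CAFs of the coregulator and glucocorticoid-induced genes, in CD26- (blue) and CD26+ (red) fibroblasts. All genes of the coregulator list that passed lie below 0, led by Ncoa1, whereas the glucocorticoid-induced genes lie on both sides of 0, from Cdkn1c at -4.22 to Fkbp5 at 1.06 in CD26- cells.

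Estrogen- and progesterone-responsive genes, 12 tested of 13, also passed in both directions. In CD26- CAFs 4 rose (Tnfsf11 4.62, Ccnd1 4.24, Areg 2.20 and Ctsd 0.66) and 2 fell (Cited1 -3.94 and Ramp3 -2.39), beside 20.4% and 21.0% of all genes, and in CD26+ CAFs 4 rose (Tnfsf11 4.23, Ccnd1 2.16, Igfbp4 1.11 and Ctsd 0.70) and 1 fell (Cited1 -2.75). The medians of -0.26 and 0.25 lay on either side of 0. Tnfsf11 encodes RANKL, which progesterone induces in mammary epithelium, and Ccnd1 encodes cyclin D1. The part of Pgr and Esr1 in the changes of this list was not tested. Between the CD26 classes of CAFs 0 were higher in CD26+ cells and 5 were lower (Ramp3, Areg, Wnt4, Ccnd1 and Tnfsf11, with log2 differences of -1.46 to -1.77).

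Enzymes and transporters that handle steroid and thyroid hormones, 12 tested of 17, included some of the largest changes. Dio3, which inactivates thyroid hormone, rose by 3.50 in CD26- and 4.37 in CD26+ CAFs, beside the lower Thrb, and Dio2, which activates it, fell by 2.45 in CD26- CAFs. The glucocorticoid-converting enzymes Hsd11b2 (-2.28) and Hsd11b1 (-1.90) fell in CD26- CAFs. In all, 2 rose and 4 fell in CD26- cells and 3 rose and 1 fell in CD26+ cells, with medians of -0.31 and -0.06, and 20.4% and 20.1% of all genes rose and 21.0% and 21.1% fell. Akr1c18, which inactivates progesterone, was higher in CD26+ cells, by 7.56 in NFs (FDR = 0.000133) and by 2.74 in CAFs.

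Of the 12 genes of growth hormone and prolactin signalling, 4 fell in CD26- CAFs (Irs2 -1.38, Stat5b -1.38, Irs1 -0.92 and Sh2b1 -0.44) and 0 rose, beside 21.0% of all genes lower and 20.4% higher. In CD26+ CAFs the same 4 fell (Irs2 -1.35, Irs1 -1.10, Stat5b -0.64 and Sh2b1 -0.33) and Socs1, an inhibitor of the pathway, rose by 1.38. The medians were -0.24 and -0.09. Stat5b, which encodes 1 form of the STAT5 through which Ghr and Prlr signal, thus fell in CAFs of both classes, in which Prlr fell and Ghr did not pass. Stat5a, which encodes the other form and is in the same list, did not pass in either class. Of the angiotensin system, 8 genes tested of 9, the peptidases Mme (-2.80 and -2.36) and Enpep (-1.91 and -1.93) fell in both classes and Lnpep (-0.97) in CD26+ cells, and 0 rose, with medians of 0.04 and -0.14, beside 21.0% and 21.1% of all genes lower. In CD26+ CAFs Ace, which makes angiotensin II, was higher than in CD26- CAFs by 1.20, and Agt, its precursor, was lower by a log2 difference of -1.26. Of 4 hormone ligand genes only Oxt had enough counts to be tested, and it fell by 2.05 in CD26- CAFs. No gene of these lists passed between WB1P-Myc and WB1P in either CD26 class.

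Markers of other cells were read in the same sums. The 8 fibroblast markers summed to 20290 to 57200 CPM, and the 12 epithelial markers to 6.23 to 220.4 CPM. Of the epithelial markers 0 rose and 1 fell in each class between NFs and CAFs (Foxa1 in CD26- and Krt19 in CD26+ cells), and 0 passed between CD26 classes. The 8 endothelial markers summed in the CD26- class to 48.5 to 74.1 CPM for NFs and 19.9 to 82.0 CPM for CAFs, and in the CD26+ class to 195 to 523 CPM for NFs, where most was Tek, and 72.6 to 194.8 CPM for CAFs. From NFs to CAFs 6 of the 8 fell in each class, the direction of the receptors that fell, and 1, Emcn, rose in CD26- cells (log2 2.63), with medians of -1.62 and -2.53 for the list. Tek was also among the 3 genes most like Oxtr. Between CD26 classes of CAFs 2 of the 8 were higher in CD26+ cells, as Oxtr was (Tek 4.54 and Kdr 2.11), and 5 were lower, among them Vwf (-2.67), Cdh5 (-1.57) and Emcn (-5.44). Between those classes of NFs Tek alone of the 8 passed (4.08). The part of endothelial cells in the receptor values was not tested. Of the 9 pericyte markers 9 rose in CD26- CAFs and 8 were lower in CD26+ than in CD26- CAFs, the direction of Nr3c2 and Ghr in the latter contrast, and their part in those values was not tested. Immune markers summed to 18.3 to 261.4 CPM, Schwann cell markers to 4.78 to 50.2 CPM and adipocyte markers to 0.0 to 11.1 CPM. Of 9 immune markers 4 rose and 1 fell in CD26- CAFs, and 2 rose and 1 fell in CD26+ CAFs. In CD26+ against CD26- CAFs 1 was higher and 5 were lower. Of 4 adipocyte markers tested, 2 fell in CD26- CAFs and 1 in CD26+ CAFs, and 3 were lower in CD26+ than in CD26- CAFs. None of the 4 was higher. The part of these cells in the receptor values was not tested.

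The genes whose log2 CPM followed each receptor most closely over the 25 sums were found by Pearson's r, as a description of sums that share mice and groups. The closest were Kdm3b (r = 0.957), Pogz and Fgd4 for Nr3c1, Megf9 (0.936), Rtl9 and Tek for Oxtr, Sec24a (0.930), Cped1 and Hmbox1 for Thrb, and Gcc1, Sik1 and Wdr86 for Nr3c2. For Agtr1a they were Sirpa (0.910), Gsdme and Dusp22, for Esr1 Lrrc9 (0.904), Opcml and Minar2, for Prlr Gm31805 (0.908), Pdp2 and Col4a3, and for Ghr Gm43719, Atp1a4 and Epha4 (0.792). Pgr was followed by Gm16485 (0.972), which lies 3180 bases from it, and by Siah3 and Plekha8. Among the receptors themselves the closest pairs were Esr1 with Oxtr (0.803), Oxtr with Agtr1a (0.794), Prlr with Thrb (0.768) and Nr3c1 with Thrb (0.765).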

How the data were processed

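Stranded mRNA libraries were made from sorted fibroblasts of 13 mice and sequenced paired-end. The table that the authors deposited holds raw counts for each gene, without normalization. Per the submitters' processing notes HISAT2 2.2.1 and GRCm38 were used, and the counting tool and annotation are not given in the sources used here. A row that names no gene held 0 counts and was left out. Counts of the GFP-positive and GFP-negative library of a mouse were summed per CD26 class where both were present. Each control label that holds a pair of numbers was taken as 1 mouse.

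The 25 sums, of 5790599 to 29498005 counts, were tested together in 6 groups (En1 contrasts on 44 libraries in 12 groups) in R 4.3.3 with edgeR 4.0.16 (filterByExpr, TMM, glmQLFit, glmQLFTest, 2-sided, Benjamini-Hochberg over all genes tested). CPM were computed here with TMM-scaled library sizes, and correlations used log2 CPM with a prior count of 2. Combined CAF contrasts weight WB1P and WB1P-Myc equally. The fits were tested on simulated counts. Libraries of a mouse form pairs through the labels. Across genes, the 2 CD26 classes of a mouse deviated together from the means of their groups in all 12 mice that had both (Pearson's r at least 0.237, median 0.444 and at most 0.668). No 2 libraries of a group, in 63 pairs, agreed within sampling noise. Alternatives were DESeq2 1.42.0 size factors and its Wald test, a fit of genes of any count, mouse as a block (within limma 3.58.1 voom as a random effect between groups of mice), only the groups compared, no 8x8 mice, and each mouse left out in turn.

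Promoter windows are RefSeq's for GRCm38.p6. Exon lengths and positions come from GENCODE M21, whose coordinates matched for 54906 of 55226 identifiers found. Named genes are the 9 receptors, Dpp4, at most the 3 most changed genes per list and contrast plus those that account for small counts, the 3 genes most like each receptor and defining markers. Greb1, Gm16485's distance and the exon lengths were looked at after values were seen. The receptors and gene lists were chosen with earlier results of these data known. The labels name no batch, and none was tested. Of the lists, 2 genes are not reported here.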

Additional observations from a re-analysis of the deposited data

Results flagged for a closer look

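In groups of 4 or 5 mice, a mouse was singled out when its gap to the nearest mouse was large against the range of its group (Dixon's 95% critical value). Over the 9 receptors and 4 groups of CAFs this gave 3 of 36 tests, where chance gives about 1.8, and all 3 were for Pgr. In WB1P CD26- CAFs mouse 7 had 10.35 CPM of Pgr, and the next mouse had 1.47 CPM. In WB1P CD26+ CAFs mouse 7 had 64.8 CPM, and the next had 5.75 CPM. In WB1P-Myc CD26- CAFs mouse 9 had 2.37 CPM, and the next had 0.731 CPM. In each of these sums Greb1 was also the highest of its group, at 33.4, 110.5 and 7.10 CPM. In the last group mouse 11 came close, with 7.07 CPM of Greb1 and 0.140 CPM of Pgr. Greb1 was looked at after values of these same sums were seen, so this is a description only.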

How the results depend on the processing

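The counts of receptors that passed kept within 1.5 times of the reported count under the alternatives run for the comparisons of CAFs with NFs, of CD26 classes in CAFs, of the models and of En1 lineage. For CD26+ against CD26- NFs the count of 2 became 4 with mouse as a replicate block (the pairing added Esr1 and Pgr), 1 with only the groups compared and 1 to 2 with a mouse left out (1 without mouse 2). For WB1P-Myc against control in CD26- cells the count of 4 became 2 to 5 with a mouse left out (2 without mouse 2). The block changed the call of 2 more receptors, Prlr between CD26 classes of CAFs (-0.70) and Oxtr in CD26- CAFs (-1.28, not passed), and of no other. Thrb, Nr3c1, Nr3c2 and Prlr passed between CAFs and NFs of both classes under all 19 alternatives, with log2 fold changes of -1.96 to -1.59 for Thrb, -1.14 to -0.65 for Nr3c1, -2.50 to -1.10 for Nr3c2 and -2.01 to -1.56 for Prlr. Agtr1a between the models in CD26- CAFs passed under all 19 (1.48 to 1.68).

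Directions turned only for differences that did not pass. Pgr in CD26- CAFs was -0.29 with the random block and -0.31 (without mouse 7) to 0.91 with a mouse left out, and in CD26+ CAFs -2.21 to 0.57 (without mouse 2). Ghr in CD26- CAFs was -0.29 to 0.22 (without mouse 2). Between CD26 classes of CAFs Nr3c1 was -0.066 without the 8x8 mice and -0.033 (without mouse 8) to 0.070 with a mouse left out, below 0 also without mouse 12 or 13. Thrb there was -0.21 to 0.094 (without mouse 10), above 0 also without mouse 6, 7 or 12. Agtr1a in WB1P-Myc CD26+ CAFs against control was -0.044 (without mouse 1) to 0.18. The causes were not tested. Further calls changed for Oxtr in CD26- CAFs (lost in 9 alternatives) and between CD26 classes of NFs (3.32, FDR = 0.0939 with only the groups compared), in CD26+ CAFs (gained in 6, among them DESeq2's size factors), and, gained, for Agtr1a in CD26- CAFs without mouse 5 (-0.41) or 9 (-0.42) and, without the 8x8 mice, for Ghr in CD26+ CAFs (-0.58, FDR = 0.0319) and Esr1 in CD26- CAFs (-0.90, FDR = 0.0467).

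Counts over all genes moved more. Between the models in CD26- CAFs 85 genes became 54 without the low-count filter, 401 by DESeq2's Wald test, 50 without the 8x8 mice, 6 with only the groups compared and 9 (without mouse 9 or 13) to 243 (without mouse 12) with a mouse left out, and in CD26+ CAFs 0 became 8 by DESeq2's Wald test. CD26 classes of NFs gave 692 genes, 1916 with the block, 202 with only the groups compared and 175 without mouse 3. The difference of CD26 contrasts gave 351, 1010 with the block, 732 by DESeq2's Wald test and 74 without mouse 3. CD26+ cells against control gave 5566 in WB1P, 2834 with only the groups compared and 3458 without mouse 3, and 5753 in WB1P-Myc, 3740 without mouse 3. En1+ against double- gave 1, 32 with the block and 0 without mouse 12 or 13, and double+ against CD26+ gave 2, 6 with the block. Size factors moved the median over all genes by less than 0.1 on the log2 scale. Depth limits Oxtr and Pgr in CD26- cells and Prlr, with as few as 1, 1 and 4 reads per sum.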
